A study of Tursiops truncatus with 17 samples.

Results

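The proteins of the mitochondrial ribosome are encoded in the nuclear genome by genes whose symbols begin with MRPL or MRPS. The genes described here are the protein-coding genes whose symbol is MRPL or MRPS followed by a number and at most 1 letter. The rule found 75 genes of the 21265 in the files, 47 with an MRPL symbol and 28 with an MRPS symbol. The rule uses names only and no measured value, but it was set with earlier results of these data known.

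The mitochondrial ribosome translates the few messenger RNAs of the mitochondrial genome, whose products are core subunits of the respiratory chain and ATP synthase. Its ribosomal RNAs are made inside the mitochondrion, while all of its proteins are translated in the cytosol and imported. Compared with bacterial ribosomes the mammalian form has lost RNA and gained protein, so some of its proteins have a bacterial counterpart and others do not. Neurons depend heavily on the respiratory chain that this ribosome serves.

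Messenger RNA was sequenced from the cerebral cortex of 17 bottlenose dolphins (Tursiops truncatus), with 1 library from each animal. The 8 non-bloom dolphins carry the label non-bloom season and the 9 bloom dolphins the label bloom season. All 17 samples were frozen tissue from an archive of necropsies, and the labels give every animal the genotype WT. The labels name no age, sex, date, time after death or sequencing batch, so batch and season cannot be told apart and no within-batch value is given. Numbers such as bloom 9 follow accession order within a group. The question of the comparison is how cortical transcripts differ with the season of collection.

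Values are CPM, read counts brought to a common library size, here scaled by TMM (the trimmed mean of M values), as deposited. Whole reads recovered from them came to 7680050 to 15635292 per library. All genes of the mitochondrial genome in the files, not only its messenger RNAs, took 9.68% to 22.1% of the reads in non-bloom libraries. In bloom libraries they took 1.47% to 77.2%. Bloom 9, bloom 5 and bloom 6 had the highest shares, 77.2%, 57.0% and 33.5%, and bloom 9 kept 1753299 reads for all other genes. Neuronal markers were lowest in bloom 5: the 11 pan-neuronal markers found of 12 listed summed to 8677 to 15018 in non-bloom and 2616 to 11285 in bloom dolphins, with 0 of the 11 at 0 in any library. Astrocyte and oligodendrocyte markers, 9 each, were also detected in every library. Of 7 microglia markers in the files, 6 were at 0 in at least 1 library (AIF1, CX3CR1, P2RY12, C1QB, TREM2 and ITGAM). Log2 changes over all dolphins are therefore given with those lacking bloom 5, 6 and 9 where the sizes differed by more than 1.5 times. No library matched another within sampling noise, and non-bloom 2 and non-bloom 8 came closest, at 17.0 chi-square units per gene.

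By role, 49 of the 75 genes encode large-subunit proteins, 28 with a bacterial counterpart and 21 without. Another 25 encode small-subunit proteins, 15 with a bacterial counterpart and 10 without. The large-subunit count includes MRPS18A and MRPS30, which sit in the large subunit despite their symbols. The remaining gene, MRPS36, encodes a component of the alpha-ketoglutarate dehydrogenase complex. Of the listed subunit genes, MRPL30, MRPL36 and MRPS17 were not analysed here. A RefSeq symbol table of the species (assembly mTurTru1.mat.Y) held 74 of the 75 symbols.

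All 75 genes had reads in every library, and all 75 passed the filter on low counts, which left 13548 genes for the test. The lowest count behind any value was 6 reads, for MRPL49 in bloom 9. The 75 genes together took 0.284% to 0.454% of the non-mitochondrial reads in non-bloom dolphins and 0.367% to 0.660% in bloom dolphins. Bloom 9 had the highest share, 0.660% (exact 95% binomial interval 0.648% to 0.672%, which covers counting error only).

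Mean values ranged from 7.10 to 202 over genes and groups. These are not per length, because no transcript lengths were used here, so they do not order the genes by abundance. Over all 17 dolphins MRPL27, MRPS15 and MRPL18 had the highest mean values on this scale. MRPL18 had a mean of 108 ± 18.5 (SD, n = 8) in non-bloom and 109 ± 11.7 (SD, n = 9) in bloom dolphins. The lowest mean values on this scale were those of MRPL50, MRPL49 and MRPS28. MRPL50, a large-subunit protein without a bacterial counterpart, had 7.10 ± 1.47 and 8.10 ± 1.21. MRPS28, a small-subunit protein, had 10.1 ± 2.13 and 9.51 ± 1.95. The groups of MRPL18, MRPL50 and MRPS28 overlapped.

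Most mitochondrial ribosomal protein genes had small positive changes in the bloom-season cortex, and none passed the test on its own. The log2 change was positive for 60 of the 75 genes, with a median of 0.18, while 49.7% of all 13548 genes had a positive change and their median was -0.0034. With limma-trend on log2(value + 1) and Benjamini-Hochberg adjusted p under 0.05, 0 of the 75 genes passed, beside 9.16% of all genes tested (1241 genes, of which 606 or 4.47% were higher and 635 or 4.69% lower). Without adjustment, p was under 0.05 for 12 higher and 2 lower genes, where all genes gave 16.4% higher and 19.1% lower. edgeR's quasi-likelihood test on the recovered reads also called 0 of the 75 (background 8.63%, made of 823 higher or 6.07% and 346 lower or 2.55%). Its unadjusted p was under 0.05 for 16 higher and 3 lower of the 75, and for 2821 higher and 2099 lower of all 13548 genes. DESeq2 called 7 higher and 1 lower (background 23.4%, 14.4% higher and 9.04% lower), and limma-voom with quality weights called 6 higher and 4 lower (background 31.2%, 14.7% higher and 16.5% lower). Scaled to each library's non-mitochondrial reads, limma-trend called 384 genes higher and 163 lower over the whole table, 0 of the 75 passed, and 56 were positive. The smallest adjusted p by limma-trend was 0.0602, for MRPS35.

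Ranges of the 2 groups overlapped for every gene: 0 of the 75 separated the seasons, and 0.657% of all genes tested did. In whole-tissue RNA, fewer cells of a type and less RNA per cell cannot be told apart.

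**Figure D1:**
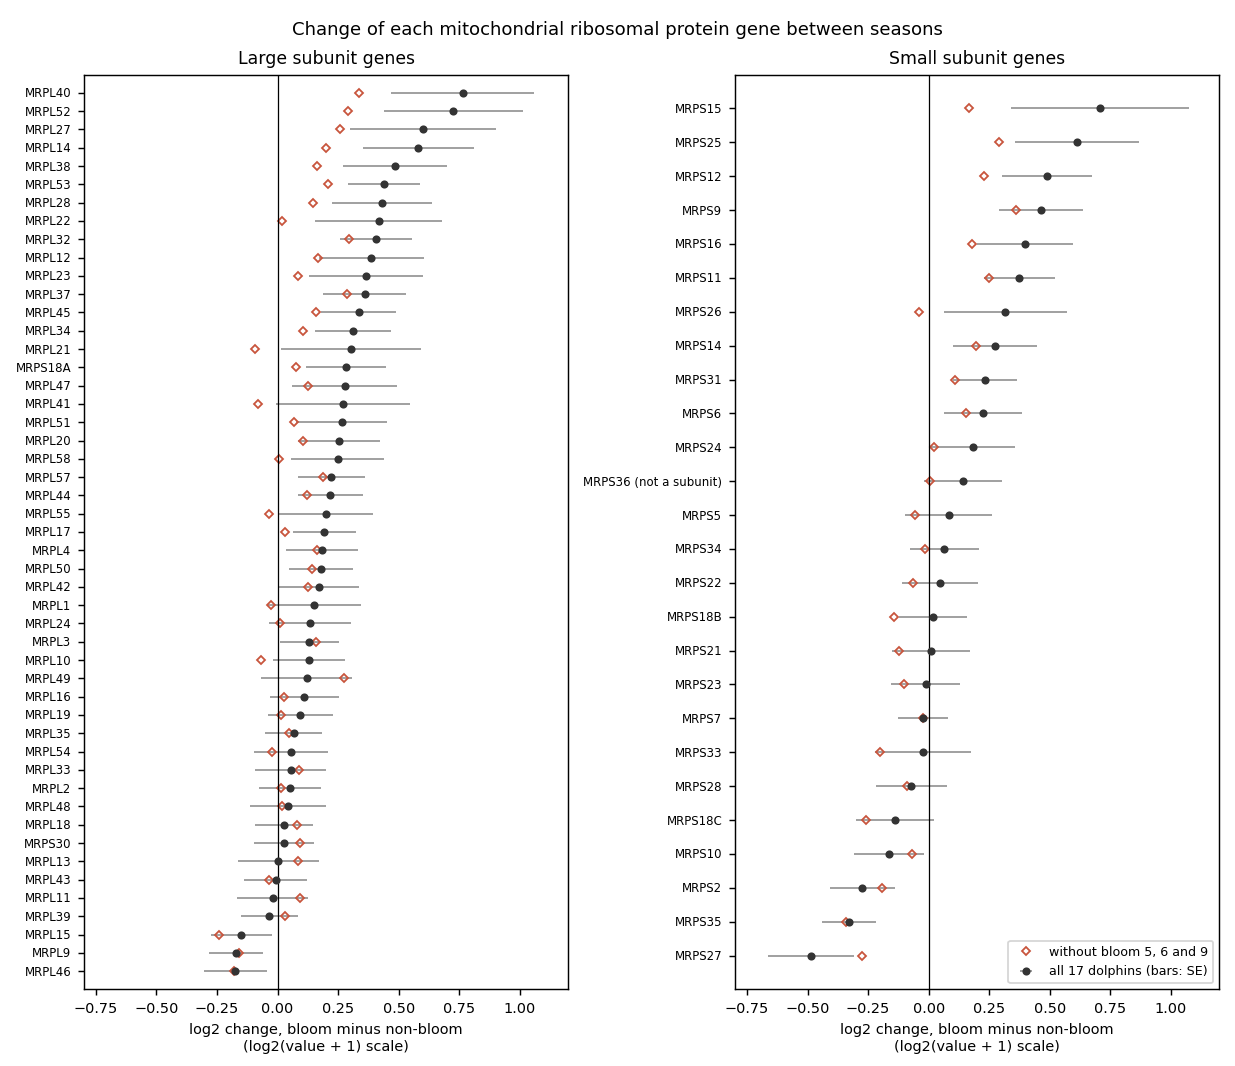
Log2 change between bloom and non-bloom dolphins of each of the 75 genes, large subunit on the left and small subunit with MRPS36 on the right; filled points are all 17 dolphins with the SE as bars, and open diamonds leave out bloom 5, 6 and 9. With all dolphins 60 of 75 points lie above 0, and the median falls from 0.18 to 0.07 without those 3 dolphins.

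The positive shift was smaller without the bloom libraries that stood apart. Without bloom 5, 6 and 9, 50 of 75 genes were positive with a median of 0.07, beside 51.5% positive and a median of 0.01 over all genes. Then 0 of 75 passed limma-trend (background 2.34%), and 1 higher and 1 lower had an unadjusted p under 0.05. Of all 13663 genes in that fit, 1584 higher and 1498 lower had such a p. Leaving out bloom 9 alone gave a median of 0.08 with 51 genes positive (50.4% of all genes were). Leaving out non-bloom 7 alone gave 0.13 with 50 positive (49.2% of all genes were). edgeR without bloom 5, 6 and 9 gave 46 positive genes and a median of 0.05, and 50.7% of all genes were positive. With a covariate for the level of the pan-neuronal markers, 63 genes were positive (50.7% of all genes were), the median was 0.16, and 0 passed (background 0.0295%). With the ratio of mitochondrial to other reads as a covariate, 5 genes were called higher and 1 lower (background 18.6%, 8.10% higher and 10.5% lower), and the median was 0.13.

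The median change was larger among large-subunit than among small-subunit genes, a description that was not tested. Of the 49 large-subunit genes 43 were positive with a median of 0.19, and 8 higher and 0 lower had an unadjusted p under 0.05. Of the 25 small-subunit genes 16 were positive with a median of 0.06, and 4 higher and 2 lower had an unadjusted p under 0.05. Over all genes tested, 16.4% were higher and 19.1% lower by that p, so the counts of higher genes in both subunits were near the general share. Without bloom 5, 6 and 9 the large subunit had 39 of 49 positive and a median of 0.08, and the small subunit 10 of 25 positive and a median of -0.04. The 21 large-subunit genes without a bacterial counterpart had a median of 0.22 and the 28 with one 0.17. Among small-subunit genes, the 15 with a bacterial counterpart had a median of 0.18 and the 10 without one 0.03.

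The mean log2 level of the large-subunit genes minus that of the small-subunit genes was taken in each dolphin. In non-bloom dolphins the difference ran from -0.02 (non-bloom 7) through a median of 0.05 to 0.13 (non-bloom 4). In bloom dolphins it ran from 0.09 (bloom 1) through a median of 0.15 to 0.21 (bloom 6). The ranges overlapped. This difference was not tested either.

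Among large-subunit proteins with a bacterial counterpart, MRPL32 stood first by p. MRPL32 is cut by the m-AAA protease of the inner membrane before it joins the ribosome. Its values in non-bloom dolphins ran from 8.61 through a median of 13.5 to 19.0, and in bloom dolphins from 14.0 through 17.1 to 23.9. All 9 bloom dolphins lay above the non-bloom median, yet the ranges overlapped through the highest non-bloom values. The log2 change was 0.41 (SE 0.15, limma-trend adjusted p = 0.0713). This was 0.30 without bloom 5, 6 and 9 (adjusted p = 0.239), and bloom 9 differed from the median of the other bloom dolphins by 0.03.

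MRPL27, whose bacterial counterpart lies near the peptidyl transferase centre, had non-bloom values of 52.9, 105 and 178 (lowest, median, highest) and bloom values of 102, 143 and 617. The highest value was that of bloom 9. Its log2 change was 0.60 (SE 0.30, limma-trend adjusted p = 0.159), 0.35 without bloom 9 and 0.26 without bloom 5, 6 and 9. The counterparts of the bacterial stalk and its base, where translation factors bind, gave different values. MRPL12, the stalk protein, had 32.9, 59.4 and 82.8 in non-bloom and 54.6, 70.6 and 174 in bloom dolphins, and differed by 0.39 log2 units (SE 0.22, limma-trend adjusted p = 0.203). Bloom 9 held the 174, and the difference of MRPL12 was 0.24 without it and 0.17 without bloom 5, 6 and 9. MRPL10, which joins the stalk to the ribosome, had 17.1, 17.9 and 20.9 against 13.1, 19.3 and 33.7, with a change of 0.13 (SE 0.15) that was -0.07 without those dolphins. MRPL11, of the stalk base, had 41.9, 56.0 and 79.1 against 36.8, 52.4 and 77.9, with a change of -0.02 (SE 0.15) and of 0.09 without them. For all 3 stalk genes the groups overlapped and none passed limma-trend.

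The lower large-subunit genes with the smallest p were MRPL9, MRPL46 and MRPL15. MRPL9, which has a bacterial counterpart, had non-bloom values of 25.6, 31.0 and 37.9 and bloom values of 23.3, 27.4 and 33.7 (lowest, median, highest), a log2 change of -0.17 (SE 0.11, limma-trend adjusted p = 0.273). Bloom dolphins lay below the non-bloom median in 8 of 9 cases. MRPL15, also of bacterial ancestry, had 47.2, 56.3 and 75 against 37.7, 49.6 and 63.5, with a change of -0.15 (SE 0.13, adjusted p = 0.395) and of -0.24 without bloom 5, 6 and 9. MRPL46 is described with its neighbour MRPS11.

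MRPL40 and MRPL53, large-subunit proteins without a bacterial counterpart, had the smallest p of that class together with high values in bloom 9 or bloom 5. MRPL40 had non-bloom values of 16.3, 28.0 and 46.7 and bloom values of 32.0, 39.5 and 178 (lowest, median, highest). All 9 bloom dolphins lay above the non-bloom median, and the highest value, in bloom 9, was 2.26 log2 units above the median of the other bloom dolphins. For MRPL40 the log2 change was 0.76 (SE 0.29, limma-trend adjusted p = 0.0825), 0.53 without bloom 9 and 0.33 without bloom 5, 6 and 9. MRPL53 had 25.8, 32.4 and 35.8 in non-bloom and 30.0, 38.8 and 67.1 in bloom dolphins. Bloom 5 was the highest of all 17, and 8 of 9 bloom dolphins lay above the non-bloom median. The log2 change of MRPL53 was 0.44 (SE 0.15, limma-trend adjusted p = 0.0609), and 0.21 without bloom 5, 6 and 9 (adjusted p = 0.237).

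**Figure D2:**
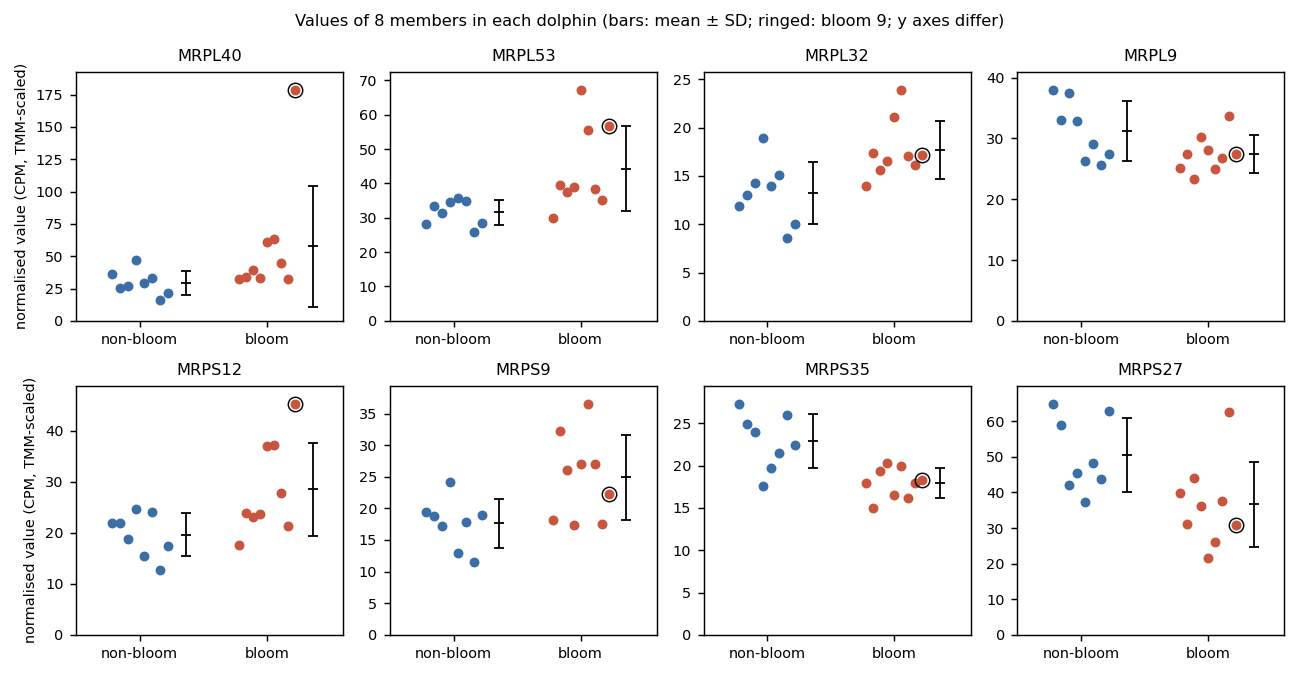
Normalised values (CPM, TMM-scaled, linear axes from 0 that differ between panels) of 8 genes in 8 non-bloom (blue) and 9 bloom (red) dolphins; each point is a dolphin, bars are the mean ± SD and bloom 9 is ringed. Bloom 9 is at 178 for MRPL40 and within the range of the other bloom dolphins for MRPL32, MRPL9, MRPS9, MRPS35 and MRPS27.

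Other large-subunit proteins without a bacterial counterpart also overlapped between seasons. MRPL45, which anchors the ribosome to the inner membrane, had 24.6, 37.0 and 46.7 in non-bloom and 36.7, 42.9 and 67.5 in bloom dolphins (lowest, median, highest), a log2 change of 0.33 (SE 0.15, limma-trend adjusted p = 0.129). The change of MRPL45 was 0.16 without bloom 5, 6 and 9. MRPL44, a protein with a ribonuclease III fold, had 35.8, 46.8 and 63.4 against 45.1, 54.1 and 65.5, with a change of 0.22 (SE 0.13, adjusted p = 0.239), and 0.12 without those dolphins. MRPL58, a peptidyl-tRNA hydrolase built into the large subunit, had 28.2, 36.2 and 48.7 against 29.5, 39.5 and 90.3, with bloom 9 highest. Its change was 0.25 (SE 0.19), and 0.00 without bloom 5, 6 and 9. MRPL41 had 18.3, 25.1 and 39.1 against 17.8, 30.1 and 125, also with bloom 9 highest, and a change of 0.27 (SE 0.28) that was 0.03 without bloom 9 and -0.08 without bloom 5, 6 and 9.

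Among small-subunit proteins with a bacterial counterpart, MRPS12 and MRPS9 had the smallest p. MRPS12, the counterpart of the bacterial protein at the decoding centre, had non-bloom values of 12.7, 20.3 and 24.7 and bloom values of 17.6, 23.9 and 45.1 (lowest, median, highest). Bloom dolphins lay above the non-bloom median in 8 of 9 cases, and the ranges overlapped. Its log2 change was 0.49 (SE 0.18, limma-trend adjusted p = 0.0784), 0.40 without bloom 9 and 0.23 without bloom 5, 6 and 9. MRPS9 had 11.5, 18.3 and 24.2 against 17.3, 26.1 and 36.5, with the highest value in bloom 6 and 6 of 9 bloom dolphins above the non-bloom median. Its log2 change was 0.46 (SE 0.17, adjusted p = 0.0756), and 0.48 without bloom 9, which lay 0.24 log2 units below the median of the other bloom dolphins (-0.24).

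MRPS15, another small-subunit protein of bacterial ancestry, had the widest spread of the 75 genes. Its values were 58.6, 79.9 and 147 in non-bloom and 73.3, 123 and 836 in bloom dolphins (lowest, median, highest). Bloom 9 held the 836, and it lay 2.83 log2 units above the median of the other bloom dolphins. The log2 change of MRPS15 was 0.71 (SE 0.37, limma-trend adjusted p = 0.170), 0.39 without bloom 9 and 0.17 without bloom 5, 6 and 9. MRPS16 had 12.3, 17.6 and 23.5 against 13.3, 21.9 and 49.7, with a change of 0.40 (SE 0.20, adjusted p = 0.158), and 0.18 without those dolphins. MRPS2 had 22.8, 31.2 and 41.9 against 18.4, 25.6 and 33.6, with a change of -0.27 (SE 0.13, adjusted p = 0.148), and 8 of 9 bloom dolphins lay below its non-bloom median.

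MRPS35 and MRPS27, small-subunit proteins without a bacterial counterpart, were the lower genes with the smallest p. MRPS35 had non-bloom values of 17.7, 23.2 and 27.3 and bloom values of 15.0, 18.0 and 20.3 (lowest, median, highest). All 9 bloom dolphins lay below the non-bloom median, and the ranges overlapped through the lowest non-bloom values. Its log2 change was -0.33 (SE 0.11, limma-trend adjusted p = 0.0602; edgeR adjusted p = 0.0557). It was -0.34 without bloom 5, 6 and 9 (adjusted p = 0.103) and -0.32 with the pan-neuronal level as a covariate (adjusted p = 0.465), so its size was close in all 3 fits. The adjusted p of MRPS35 ran from 0.0120 to 0.465 over the alternatives, and it passed in 5 of 30.

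MRPS27, which has pentatricopeptide repeats, had 37.4, 46.9 and 64.8 in non-bloom and 21.7, 36.1 and 62.5 in bloom dolphins (lowest, median, highest). Bloom 5 was the lowest of all 17. The log2 change was -0.48 (SE 0.18, limma-trend adjusted p = 0.0733), -0.27 without bloom 5, 6 and 9 and -0.21 with the pan-neuronal level as a covariate. MRPS22 had 27.2, 35.2 and 47.2 against 30.3, 34.8 and 62.3, with a change of 0.05 (SE 0.16), and -0.07 without bloom 5, 6 and 9. MRPS34, which stabilises the small subunit, had 48.9, 69.1 and 79.8 against 57.9, 65.6 and 118, with a change of 0.06 (SE 0.14), and -0.02 without them. Bloom 9 was the highest of all 17 for both MRPS22 and MRPS34.

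MRPS18A, MRPS18B and MRPS18C encode 3 proteins related in sequence to bacterial S18. Only MRPS18C was counted here as its counterpart in the ribosome, and the other 2 were counted among the proteins without one. MRPS18A, the large-subunit form, had 11.0, 13.5 and 17.4 in non-bloom and 12.3, 15.4 and 33.1 in bloom dolphins (lowest, median, highest), a log2 change of 0.28 (SE 0.17, limma-trend adjusted p = 0.221), and 0.08 without bloom 5, 6 and 9. MRPS18B had 20.2, 22.3 and 28.9 against 15.5, 22.4 and 38.3, with a change of 0.02 (SE 0.14), and -0.14 without them. MRPS18C had 13.5, 17.9 and 22.4 against 10.5, 15.8 and 24.6, with a change of -0.14 (SE 0.16), and -0.26 without them. Bloom 9 was the highest dolphin for all 3, and the groups overlapped for all 3. MRPS30, the other large-subunit protein with an MRPS symbol, had 16.1, 20.6 and 24.6 against 16.6, 21.4 and 24.1, and a change of 0.03 (SE 0.12), or 0.09 without bloom 5, 6 and 9. MRPS36, outside the ribosome, had 22.6, 40.1 and 50.6 against 32.5, 39.5 and 58.3, and a change of 0.14 (SE 0.16), or 0.01 without them.

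Single dolphins set much of the spread. Bloom 9 was the highest of all 17 dolphins for 46 of the 75 genes, and non-bloom 7 was the lowest for 50. These counts were not made over all genes, so they are not shown to be particular to the 75. Bloom 9 and non-bloom 7 also had the highest and lowest mean log2 level of cytosolic ribosomal protein genes (9.87 and 7.24). The same held for nuclear oxidative phosphorylation genes (7.59 and 6.13). Bloom 9 lay above the median of the other bloom dolphins for 66 genes, with a median difference of 0.61 log2 units, and non-bloom 7 lay below the median of the other non-bloom dolphins for 73 genes, with a median of -0.50. The genes were not alike in bloom 9. MRPS15 was 2.83, MRPL40 2.26 and MRPL27 2.23 log2 units above the other bloom dolphins' median, while MRPL49 was 1.39 below it (-1.39). MRPL49 in bloom 9 rests on 6 reads.

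**Figure D3:**
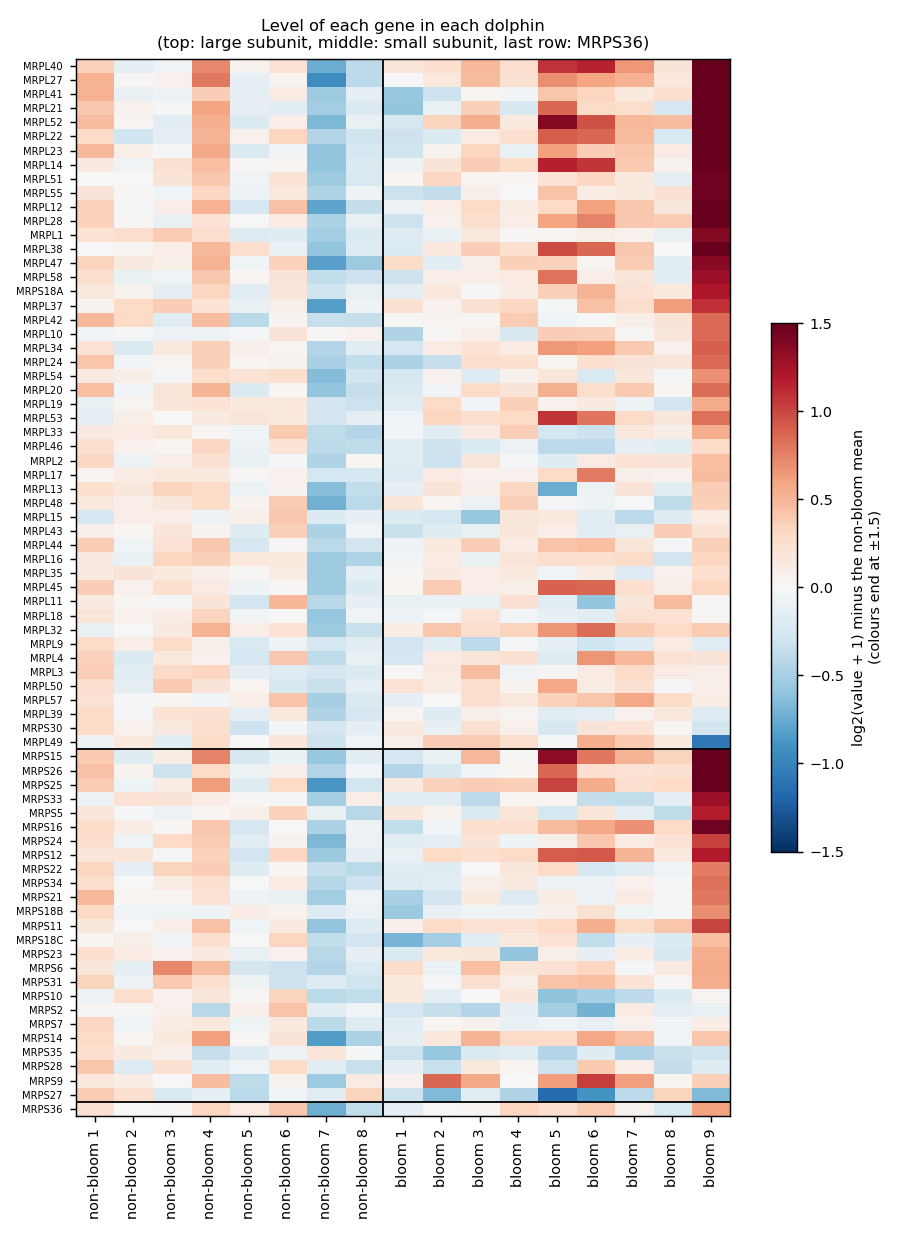
Level of each of the 75 genes (rows) in each of the 17 dolphins (columns) as log2(value + 1) minus the non-bloom mean, red higher and blue lower, with colours ending at ±1.5; genes are ordered within each subunit by the difference of bloom 9 from the other bloom dolphins. The column of bloom 9 is red for most rows and that of non-bloom 7 blue, the highest dolphin for 46 genes and the lowest for 50. These counts were not made over all genes.

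The genes largely varied together between dolphins of a season. Within groups, the correlation of a gene with the mean of the other 74 had a median of 0.75 over 17 libraries and of 0.81 over the 14 without bloom 5, 6 and 9. These coefficients describe libraries that share scaling and depth. Over the 14 libraries the highest was 0.96, for MRPL12, and MRPS35 was the single gene with a negative value, -0.23. The SD within groups ran from 0.17 log2 units, for MRPS7, to 0.83, for MRPS15, with a median of 0.32. For 15 genes the seasonal difference was larger than 1 such SD. That count was not made over all genes tested, so it is not shown to be particular to the mitochondrial ribosomal protein genes. MRPS7 was picked out after its values were seen.

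The members' genes span 309 to 97939 bases with a median of 6473, against a median of 20164 over the nuclear protein-coding genes tested. Across genes, which are not independent replicates, Spearman's rho of span with log2 change was -0.23 over the 75 and -0.20 over the 13144 nuclear protein-coding genes. The 25 genes with the shortest spans had a median change of 0.22, the 25 in the middle 0.05 and the 25 with the longest 0.18. The change of the members did not follow span in order.

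MRPL46 and MRPS11 are the only members that lie next to each other in the files' coordinates. They encode a large-subunit protein without a bacterial counterpart and a small-subunit protein with one. On scaffold_112382, in the files' own coordinates, whose build the labels do not name, MRPL46 runs from 95554 to 106086 and MRPS11 from 106474 to 116298, with 387 bases between them. Both were also neighbours in the RefSeq table. Strand is not given in the files, and without it reads that cross from one gene into the other cannot be told apart.

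MRPL46 had non-bloom values of 50.05, 68.4 and 82.2 and bloom values of 49.96, 58.4 and 81.2 (lowest, median, highest), a log2 change of -0.17 (SE 0.13, limma-trend adjusted p = 0.327). MRPS11 had 22.3, 35.5 and 46.8 against 36.1, 42.3 and 69.7, a log2 change of 0.37 (SE 0.15, adjusted p = 0.0863). Neither gene passed, and each overlapped between the seasons. Bloom 9 was the highest of the bloom dolphins for both genes, and non-bloom 7 was the lowest of the non-bloom dolphins for both.

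The ratio of the 2 genes within a dolphin did separate the seasons. The log2 ratio of MRPS11 to MRPL46 ran from -1.17 (non-bloom 7) to -0.75 (non-bloom 8) in non-bloom dolphins, with a mean of -0.95 ± 0.13 (SD, n = 8). In bloom dolphins it ran from -0.69 (bloom 1) to -0.0035 (bloom 6), with a mean of -0.39 ± 0.22 (SD, n = 9). The groups did not overlap, and the difference was 0.56 (SE 0.088, two-sided exact permutation test over 24310 splits, p = 8.23e-05, the smallest these splits can give). Without bloom 5, 6 and 9 the difference was 0.44 (exact permutation p = 0.000666 over 3003 splits). Because the groups did not overlap, each p follows from the numbers of dolphins alone and adds nothing to that separation. The pair was chosen for its position after the data were seen, and neither p is adjusted for that choice. Of 495 neighbouring protein-coding pairs at most 1000 bases apart, 3 had non-overlapping ratios (0.606%), and of the 2775 pairs of members 3 did (0.108%): MRPS11 with MRPL46, MRPL37 with MRPL46, and MRPL41 with MRPL52.

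**Figure D4:**
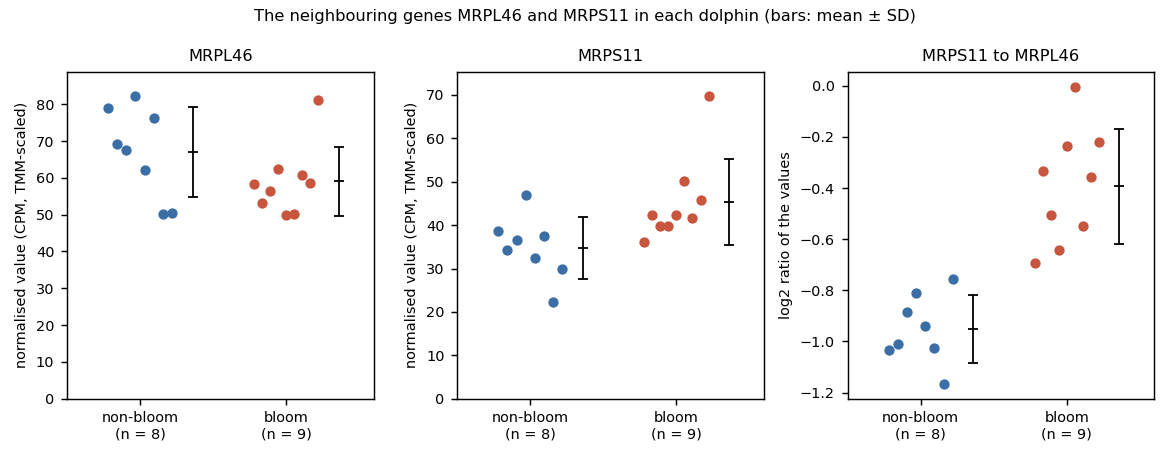
Normalised values (CPM, TMM-scaled) of MRPL46 and MRPS11 and the log2 ratio of MRPS11 to MRPL46 in 8 non-bloom (blue) and 9 bloom (red) dolphins; points are dolphins and bars the mean ± SD. Each gene overlaps between seasons, while the ratios lie from -1.17 to -0.75 in non-bloom and from -0.69 to -0.0035 in bloom dolphins.

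Other proteins of the same ribosome that carry no MRP symbol had positive changes too. Of DAP3, PTCD3, CHCHD1, AURKAIP1 and GADD45GIP1, 5 of 5 were positive with a median of 0.35, and 0 passed by limma-trend or edgeR (with limma-trend's unadjusted p under 0.05 for 1 higher and 0 lower). DAP3, a GTP-binding protein of the small subunit, had 19.0, 22.3 and 28.4 in non-bloom and 26.2, 29.7 and 34.9 in bloom dolphins (lowest, median, highest). Its log2 change was 0.35 (SE 0.11, limma-trend adjusted p = 0.0516), and 0.29 without bloom 5, 6 and 9. AURKAIP1, also of the small subunit, had a change of 0.43 (SE 0.22, adjusted p = 0.158), and of 0.15 without those dolphins.

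Among 28 assembly factors of the mitochondrial ribosome, 1 passed higher and 0 lower by limma-trend, 14 were positive and the median was 0.02. Over all genes 4.47% passed higher and 4.69% lower, so 1 of 28 was near the general share. RCC1L, which binds the large subunit's ribosomal RNA and takes part in assembly, had non-bloom values of 17.7, 18.6 and 20.2 and bloom values of 16.1, 27.7 and 43.0 (lowest, median, highest). The bloom dolphins spread on both sides of the narrow non-bloom range. RCC1L rose from 18.7 ± 0.94 to 29.2 ± 9.04 (SD, n = 8 and n = 9), a log2 change of 0.55 (SE 0.16, limma-trend adjusted p = 0.0455; edgeR adjusted p = 0.0357). The call was lost in 14 of 17 fits that left out a dolphin, and without bloom 5, 6 and 9 the change was 0.32 (adjusted p = 0.146). RBFA, another assembly factor, had a change of 0.30 (SE 0.11, adjusted p = 0.0751), and of 0.19 without those dolphins.

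None of 14 translation factors and 19 tRNA synthetase genes passed by limma-trend or edgeR, with medians of 0.02 and -0.06. MTRF1, a release factor, had a log2 change of 0.37 (SE 0.13, limma-trend adjusted p = 0.0658), and of 0.19 without bloom 5, 6 and 9. SLIRP, which stabilises mitochondrial messenger RNAs, had a change of 0.91 (SE 0.35, adjusted p = 0.0801) and of 0.36 without these. AARS2, the mitochondrial alanyl-tRNA synthetase, had a change of 0.51 (SE 0.17, adjusted p = 0.0614). QRSL1, a subunit of the amidotransferase that makes glutaminyl-tRNA, had -0.69 (SE 0.23, adjusted p = 0.0562), and -0.36 without these.

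Of 14 genes that copy or transcribe the mitochondrial genome or cut its transcripts, limma-trend called 0 higher and 1 lower (ELAC2). By edgeR 1 was higher (HSD17B10) and 0 lower. Over all genes limma-trend called 4.47% higher and 4.69% lower, and edgeR 6.07% and 2.55%. ELAC2, which trims the 3′ end of transfer RNA precursors, had values of 47.8, 53.8 and 77.1 in non-bloom and 16.6, 40.7 and 51.8 in bloom dolphins (lowest, median, highest). The ranges overlapped. ELAC2 fell from 57.6 ± 10.2 to 37.5 ± 12.7 (SD, n = 8 and n = 9), a log2 change of -0.67 (SE 0.20, limma-trend adjusted p = 0.0471; edgeR adjusted p = 0.0515). That call was lost in 13 of 17 fits without a dolphin and without bloom 5, 6 and 9 (-0.37, adjusted p = 0.130). HSD17B10, a subunit of mitochondrial ribonuclease P, had a change of 0.83 (SE 0.29, limma-trend adjusted p = 0.0641; edgeR adjusted p = 0.0439). The change of HSD17B10 was 0.35 without bloom 5, 6 and 9 (limma-trend adjusted p = 0.312).

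The messenger RNAs that this ribosome translates varied far more than the ribosome's own genes. All 13 messenger RNAs of the mitochondrial genome had positive changes with a median of 1.10. By limma-trend 0 passed (3 higher at an unadjusted p under 0.05, where 16.4% of all genes were). In edgeR 5 were called higher (ND5, ND1, ND3, ND6 and ND2), where it called 6.07% of all genes higher. Without bloom 5, 6 and 9, 3 of 13 were positive and the median was -0.23. ND5, a subunit of respiratory complex I, had a log2 change of 1.93 (SE 0.80, limma-trend adjusted p = 0.0971), and ND1, another, had 1.87 (SE 0.81, adjusted p = 0.113). These changes were 0.58 and 0.50 without bloom 5, 6 and 9.

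Cytosolic ribosomal proteins and nuclear genes of oxidative phosphorylation were set beside the mitochondrial ribosomal proteins. Of 74 cytosolic ribosomal protein genes 72 were positive with a median of 0.67, 0.16 without bloom 5, 6 and 9. Of 67 nuclear oxidative phosphorylation genes 49 were positive with a median of 0.21, 0.03 without those dolphins. By limma-trend 0 genes of either list passed, and edgeR called 4 and 1 higher, where it called 6.07% of all genes higher. The mitochondrial ribosomal medians of 0.18 and 0.07 lay below the cytosolic ones and near those of oxidative phosphorylation. The differences between lists were not tested.

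The mean log2 level of the 75 genes ran from 4.58 (non-bloom 7) through a median of 5.10 to 5.32 (non-bloom 4) in non-bloom dolphins. In bloom dolphins it ran from 4.90 (bloom 1) through 5.17 to 5.85 (bloom 9). Bloom 8, whose mitochondrial share of reads was 1.47%, had 5.09, and bloom 5 and bloom 6, the next highest shares after bloom 9, had 5.30 and 5.29. The mean change was 0.18, and 0.05 without bloom 5, 6 and 9. For the cytosolic ribosomal proteins the mean change was 0.64, and 0.16 without them.

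**Figure D5:**
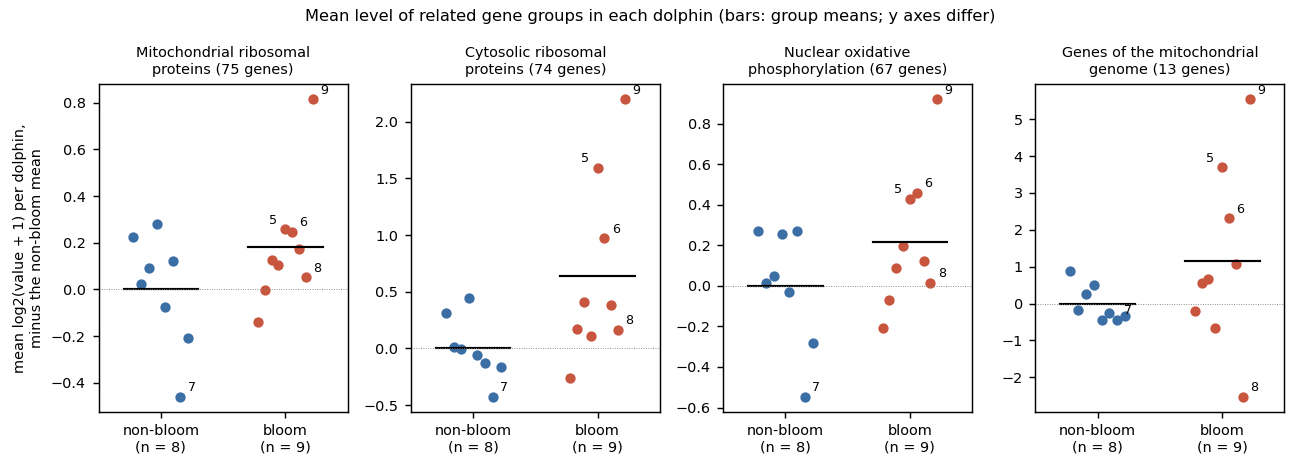
Mean log2(value + 1) of 4 gene groups in each dolphin, minus the non-bloom mean, for 8 non-bloom (blue) and 9 bloom (red) dolphins; numbers mark bloom 5, 6, 8 and 9 and non-bloom 7, bars are group means, and the y axes differ. Bloom 9 is highest in all 4 panels, and the bloom mean lies 0.18 above 0 for the mitochondrial ribosomal proteins and 0.64 for the cytosolic ones.

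Levels of cell type markers also differed between the groups. The mean log2 level of the 11 pan-neuronal markers differed by -0.69 (bloom minus non-bloom), and by -0.32 without bloom 5, 6 and 9. The 8 excitatory neuron markers differed by -0.72, and by -0.24 without those dolphins. The 8 interneuron markers differed by -1.46, and by -0.94 without those dolphins, with 5 of 8 lower by limma-trend over all dolphins (4.69% of all genes were). The 9 astrocyte markers differed by 1.18, and by 0.68 without those dolphins. By limma-trend 0 of 9 astrocyte markers passed (4 higher by unadjusted p under 0.05, where 16.4% of all genes were). In edgeR 2 of the 9 were called higher, where it called 6.07% of all genes higher. Astrocyte markers had summed values of 323 to 1838 in non-bloom and 401 to 6862 in bloom dolphins. The 9 oligodendrocyte markers differed by 0.74, with 2 of 9 higher by limma-trend (4.47% of all genes were) and sums of 1682 to 8018 against 4407 to 19137. The 5 microglia markers tested differed by -1.29, and by -1.09 without bloom 5, 6 and 9. For 2 red blood cell markers these values were -0.48 and -1.63, and for 8 endothelial markers 0.55 and 0.36. Endothelial markers lay 2.43 and 2.39 above the non-bloom mean in bloom 5 and bloom 6, but bloom 9 was at -2.08. The part of cell types in the values of the 75 genes was tested only by the pan-neuronal covariate given above, and otherwise was not tested.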

How the data were processed

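Per the labels' protocols, RNA came from about 100 mg of frozen cortex per dolphin, and libraries from 600 ng with 14 PCR cycles; the median RNA integrity number over the 17 samples was 9.1 (interval 8.9 to 9.5). Trim Galore 0.6.1 and STAR 2.5.2a are named in the submitters' processing notes. For the counter, strandedness, build and annotation nothing is stated in the sources used here. The authors deposited a normalised signal for every gene in each library. Dividing by each library's value of 1 read gave whole reads for 100% of values within 0.01, and the divisors matched TMM-scaled library sizes within 0.000147%, so the values are CPM.

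Seasons were compared with limma-trend fitted to log2(value + 1) with no other term, on genes kept by edgeR's filterByExpr (minimum count 10, minimum total 15), with Benjamini-Hochberg adjustment over all genes and a threshold of 0.05; log2 changes and SE are on that scale, which understates changes of low genes. The limma-trend and edgeR fits were tested on simulated data. P-values set the difference between seasons against the spread between dolphins, 1 library each. In limma-trend the spread of a gene is drawn towards a trend over all genes. The tools used were edgeR 4.0.16, DESeq2 1.42.0 and limma 3.58.1 under R 4.3.3.

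Members and lists were chosen with earlier results of these data known. Genes were named by a rule: members passing limma-trend or edgeR (0 did), 3 members in each direction and subunit by smallest p, the 3 highest and 3 lowest by level, a list of members by role, and 2 genes of each pathway list by p. Other genes were named after their values were seen. Alternatives were edgeR, DESeq2, limma-voom with quality weights, a pseudocount of 0.1, no filter, a filter of 1 in 8 libraries, 3 other scalings, 2 covariates and leaving out dolphins. The fits of MRPS11 to MRPL46 and of edgeR without bloom 5, 6 and 9 were added after the data were seen.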

Additional observations from a re-analysis of the deposited data

Results flagged for a closer look

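Groups of values of either season were examined over the named genes and the mean level, 70 in all. In 14 of these, all of bloom dolphins, 1 dolphin lay far from the other 8 by Dixon's test. The test's rate of about 1 in 20 is for normally spread values and need not hold here. Gene values were on a linear scale, and some genes were named for their level or p in these data. Bloom 9 was the dolphin in 13 of the 14, so they are not independent of each other. It was the highest, with the next bloom dolphin given after it, for MRPS15 (836, then 224), MRPL27 (617, then 166), MRPL40 (178, then 63.4), MRPL12 (174, then 88.3), MRPL41 (125, then 36.2), MRPS34 (118, then 72.6) and MRPL46 (81.2, then 62.3). The same held for MRPS11 (69.7, then 50.2), MRPS22 (62.3, then 44.8), MRPS16 (49.7, then 28.9) and MRPS18A (33.1, then 19.99). For the mean log2 level of the 75 genes bloom 9 had 5.85 and the next dolphin 5.30. For MRPL49 bloom 9 was instead the lowest, at 3.43 from 6 reads, with the next at 8.16. For MRPL50, bloom 5 was the highest at 10.9, with the next at 8.58.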

How the results depend on the processing

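The median change of the 75 genes was positive in all 31 fits (0.05 to 0.22), and the difference in the log2 ratio of MRPS11 to MRPL46 was 0.51 to 0.60 without 1 dolphin. Counts of calls moved, and the cause was not tested. Over all genes 1241 passed; DESeq2 gave 3170, limma-voom with quality weights 4222, no filter 560, scaling to non-mitochondrial reads 547, the pan-neuronal covariate 4 and the mitochondrial read ratio 2518. Without bloom 5, 6 and 9 there were 320 (edgeR 237), and without 1 dolphin 61 to 2895. Of the 75 genes 0 passed; DESeq2 gave 8, limma-voom 10 and the mitochondrial read ratio 6. Without 1 dolphin the count was 0 to 6: 6 without bloom 1, 3 without bloom 8, 2 without bloom 4, 1 without non-bloom 4 and 0 in the other fits. Of all genes, 21.5% passed without bloom 1, 19.9% without bloom 8, 17.1% without bloom 4 and 6.69% without non-bloom 4. Of the pathway genes 2 passed; edgeR gave 7, DESeq2 19, limma-voom 15, a pseudocount of 0.1 gave 1, and the mitochondrial read ratio 16. No filter, scaling to non-mitochondrial reads, the pan-neuronal covariate, and limma-trend or edgeR without bloom 5, 6 and 9 gave 0, and fits without 1 dolphin 0 to 10. Of 33 named members 9 passed in at least 1 alternative. No paired analysis was possible because the labels number the dolphins from 1 to 17 across both groups, and the numbers used here within a group follow accession order and pair no samples. Depth limits MRPL49 in bloom 9, which rests on 6 reads.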
